A study of Mus musculus with 6 samples.

Results

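The megalin-cubilin endocytosis genes are 9 genes of the apical uptake machinery of the proximal tubule: Lrp2, Cubn, Amn, Dab2, Clcn5, Fcgrt, Ctns, Ocrl and Folr1. They were chosen by name for their known roles; the rule used no measured value, but earlier results of these data were known when the set was proposed. The count table held 24422 genes, and all 9 were in it; 15145 genes, including all 9, passed the filter on low counts. RNA-seq was done on whole kidneys of wild type C57BL/6 mouse pups at postnatal day 15 (P15). The 3 iron-deficient (FeD) kidneys came from pups of dams on a synthetic iron-poor diet (2 to 6 ppm), and the 3 control kidneys from pups of dams whose feed held 220 ppm. By the labels, dams of both groups were 8 weeks old when the diets began, 1 month before mating (the study's methods give a shorter lead), and stayed on them through pregnancy and nursing until the pups were taken. The litter of each pup was not given in the sources used here, so an effect of the litter and an effect of the diet cannot be told apart.

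Megalin, encoded by Lrp2, and cubilin, encoded by Cubn, are very large receptors on the brush border of the proximal tubule that bind filtered albumin, vitamin carriers, hormones and iron carriers such as transferrin and lipocalin. Cubilin has no membrane-spanning segment, and amnionless, encoded by Amn, carries it to the cell surface and anchors it there. The adaptor Dab2 links the tail of megalin to clathrin, and the chloride-proton exchanger encoded by Clcn5, the phosphoinositide phosphatase encoded by Ocrl and the cystine exporter encoded by Ctns serve the endosomes and lysosomes downstream. Fcgrt encodes the heavy chain of the neonatal Fc receptor, which protects albumin and IgG from degradation, and Folr1 encodes a lipid-anchored receptor that recovers filtered folate. Inherited loss of CLCN5, OCRL or CTNS in humans causes Dent disease, Lowe syndrome and cystinosis, in which small proteins are lost in the urine.

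The genes lie apart from each other in the mm9 mouse genome, and all 9 are annotated as protein coding. Lrp2 spans chr2:69262397-69424122 on the minus strand and Cubn chr2:13197965-13413551 on the minus strand. Amn spans chr12:112509322-112514637 on the plus strand, Dab2 chr15:6249788-6390712 on the plus strand and Ctns chr11:72997098-73012544 on the minus strand. Fcgrt spans chr7:52348363-52359192 and Folr1 chr7:109006845-109019302, both on the minus strand. Clcn5 spans chrX:6730936-6896484 on the minus strand and Ocrl chrX:45265564-45319045 on the plus strand, which makes these the X-linked genes of the set. The annotation held 2 entries named Dab2, of which the longer was used for positions and lengths. The other entry, on the same strand, covers 18.7% of its exon bases. An effect of this overlap on the Dab2 counts was not tested.

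The 250 bases before the annotated start were read for the receptor-complex genes, because the transcripts of Lrp2, Cubn and Amn were all lower in FeD kidneys. The sequences are those of RefSeq on the GRCm38.p6 build, 5′ to 3′ on the strand of the gene, and 8 of the 9 genes matched the promoter table. They cover chr2:69586030-69586279 for Lrp2, chr2:13491877-13492126 for Cubn and chr12:111270846-111271095 for Amn, and capitals mark an E-box, CACGTG.
Lrp2: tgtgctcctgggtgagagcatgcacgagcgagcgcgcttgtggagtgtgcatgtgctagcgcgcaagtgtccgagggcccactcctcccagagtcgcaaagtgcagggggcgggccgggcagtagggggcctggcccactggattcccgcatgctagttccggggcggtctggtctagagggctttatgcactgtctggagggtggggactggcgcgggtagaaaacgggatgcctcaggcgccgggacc
Cubn: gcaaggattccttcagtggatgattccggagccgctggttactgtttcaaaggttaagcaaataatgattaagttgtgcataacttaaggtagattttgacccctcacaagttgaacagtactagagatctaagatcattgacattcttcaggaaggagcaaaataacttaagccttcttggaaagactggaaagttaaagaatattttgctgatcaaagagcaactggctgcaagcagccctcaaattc
Amn: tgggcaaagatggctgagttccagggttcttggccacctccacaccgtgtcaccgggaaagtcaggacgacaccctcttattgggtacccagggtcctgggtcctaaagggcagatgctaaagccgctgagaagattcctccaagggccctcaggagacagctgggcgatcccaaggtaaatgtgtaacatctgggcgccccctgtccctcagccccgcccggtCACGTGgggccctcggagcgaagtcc
In windows from 250 bases before to 50 bases after each start, the E-box was found in the Amn promoter, 26 bases before the start, and in 7.15% of all 32851 promoters. GTTAAT, a core of the sites bound by HNF1 proteins, was found on either strand in 7.10% of promoters and, among the 9 genes, in Dab2 at 65 bases before a start. AGGTCA, the core of nuclear receptor sites, was found in 16.26% of promoters and, among the 9 genes, in Ctns. It is the same Ctns site that lies 32 and 9 bases before its 2 annotated starts. No occurrence of any of the 3 motifs overlapped another in these genes. The promoters of Lrp2 and Amn were GC-rich, with 66.4% and 61.2% G or C over the 250 bases shown, and that of Cubn had 39.6%.

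Library totals ran from 16189041 to 20374327 counts in controls and from 13732173 to 20853293 in FeD kidneys, so that 3 counts corresponded to 0.144 to 0.218 CPM. The 9 genes together took 0.267% to 0.296% of the counts of a control library and 0.193% to 0.238% of those of an FeD library. The study's methods state that both sexes were used equally, without the sex of each pup, and Xist and 4 Y-linked genes (Ddx3y, Uty, Kdm5d and Eif2s3y) split the kidneys. Xist had 12870 to 18627 counts in control 1, control 2 and FeD 3, where the Y-linked genes summed to 0 to 22 counts. It had 28 to 47 counts in control 3, FeD 1 and FeD 2, where the Y-linked genes summed to 4020 to 4377. The kidneys with high Xist were therefore 2 of 3 controls and 1 of 3 FeD kidneys, so each class compared 2 kidneys with 1 and its differences are given without a test. FeD 2 stood apart in adrenal cortex genes: Star, the cholesterol carrier of steroid synthesis, had 3659 normalized counts there and 179 and 189 in the other FeD kidneys, and the 7 adrenal markers summed to 13913 there. Another of them, Hsd3b1, had 990 normalized counts in control 1, where Star had 166.

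At the transcript level, the megalin, cubilin and amnionless genes and the folate receptor were lower in FeD kidneys, and the phosphatase and the cystine exporter were higher. Of the 9 genes, 4 fell (Lrp2, Cubn, Amn and Folr1), against 23.3% of all 15145 tested genes, at an adjusted p under 0.05 in edgeR's quasi-likelihood test, with p-values adjusted over all tested genes. Likewise 2 rose (Ocrl and Ctns), against 22.4% of all tested genes. Dab2, Clcn5 and Fcgrt did not pass the test. None of the 9 passed it with a change of 2-fold or more in either direction, in edgeR or in DESeq2. In edgeR, 5.69% of all genes fell and 4.34% rose by that much. Every FeD kidney lay below every control kidney for 5 of the genes, against 29.7% of all genes, and above for 2, against 28.4%. In whole kidney RNA, fewer cells of a type and less RNA per cell cannot be told apart. The samples are described as biological replicates, 3 in each group.

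**Figure D1:**
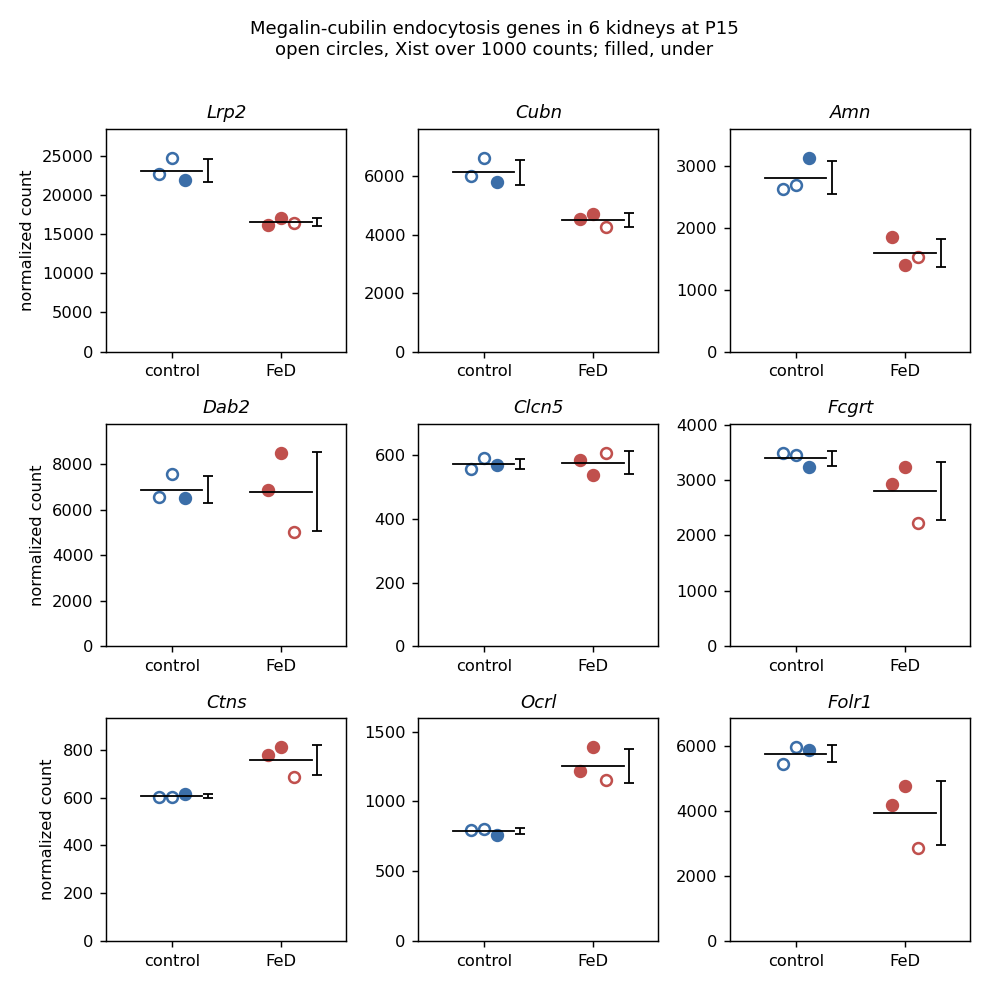
Normalized counts (TMM-scaled) of each of the 9 genes in 3 control and 3 FeD kidneys, with the y axis from 0. Points are kidneys, horizontal lines are means and bars are SD; open circles are kidneys with over 1000 Xist counts. Lrp2, Cubn and Amn are separated between groups with little spread, whereas Dab2 and Folr1 spread widely among FeD kidneys, with FeD 3 the lowest.

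Values below are normalized counts, the counts scaled by TMM factors to the mean library size. The megalin transcript Lrp2 had 22620, 24696 and 21899 normalized counts in the control kidneys and 16102, 17105 and 16419 in the FeD kidneys. The groups did not overlap, and the FeD kidneys were close together. The mean was 23072 ± 1452 in controls and 16542 ± 512 in FeD kidneys (SD, n = 3 each). Lrp2 fell by 0.48 on the log2 scale (SE 0.080, edgeR adjusted p = 0.0019), and its level decreased by 28.3%.

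Cubn, the cubilin transcript, had 6001, 6619 and 5801 normalized counts in controls and 4542, 4716 and 4259 in FeD kidneys. Again every FeD kidney was below every control. The mean went from 6140 ± 426 to 4506 ± 230 (SD, n = 3 each), and Cubn fell by 0.45 on the log2 scale (SE 0.077, edgeR adjusted p = 0.0022). On the opposite strand the annotated gene Gm13270 covers 1.36% of the exon bases of Cubn.

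Amn, which carries cubilin to the membrane, had 2618, 2686 and 3121 normalized counts in controls and 1842, 1404 and 1529 in FeD kidneys. The lowest control was still above the highest FeD kidney. The mean went from 2808 ± 273 to 1592 ± 225 (SD, n = 3 each), and Amn fell by 0.82 on the log2 scale (SE 0.11, edgeR adjusted p = 0.00072). This was the largest fall among the 9 genes, and the level decreased by 43.3%.

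All 3 genes were lower in FeD kidneys within both Xist classes: the log2 difference was -0.53 and -0.40 for Lrp2, -0.57 and -0.33 for Cubn and -0.79 and -0.96 for Amn among the kidneys with high and low Xist. Lrp2 and Cubn kept nearly the same proportion in every kidney. Per kilobase of exon, Lrp2 was 2.64 to 2.67 times the level of Cubn in controls and 2.51 to 2.73 times in FeD kidneys. The log2 ratio differed by -0.03 between the groups (two-sided exact permutation test, p = 0.40, 3 kidneys against 3). The ratio of Cubn to Amn was higher in every FeD kidney than in every control, with log2 ratios of normalized counts of 1.20, 1.30 and 0.89 in controls and 1.30, 1.75 and 1.48 in FeD kidneys. That difference of 0.38 had an exact permutation p of 0.10, the smallest that 3 against 3 allows, and 0.13 after Benjamini-Hochberg adjustment over 12 ratios. Control 2 and FeD 1 were almost at the same ratio, at 1.3008 and 1.3020.

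The folate receptor Folr1 had 5469, 5966 and 5892 normalized counts in controls and 4190, 4770 and 2861 in FeD kidneys. FeD 3 was far below the other FeD kidneys, and the groups did not overlap. The mean went from 5775 ± 268 to 3941 ± 979 (SD, n = 3 each), and Folr1 fell by 0.55 on the log2 scale (SE 0.16, edgeR adjusted p = 0.025). The call was lost without any 1 of the control kidneys, at adjusted p = 0.0505, 0.077 and 0.074 without control 1, 2 and 3. Without FeD 3 the difference was -0.36 with adjusted p = 0.0044. FeD 3 is also the FeD kidney with high Xist: the difference was -0.997 among the kidneys with high Xist and -0.40 among those with low Xist, and with the Xist class as a covariate Folr1 was at -0.70 (adjusted p = 0.0057).

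The neonatal Fc receptor transcript Fcgrt had 3493, 3454 and 3240 normalized counts in controls and 2937, 3237 and 2219 in FeD kidneys. The highest FeD kidney and the lowest control were nearly equal, at 3237.3 and 3240.1. The log2 difference was -0.28 (SE 0.13, 95% CI -0.57 to 0.0074, edgeR adjusted p = 0.10). Without FeD 2 the difference was -0.38 with adjusted p = 0.034. Among kidneys with high Xist the difference was -0.65 and among those with low Xist -0.071.

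Dab2, the adaptor that binds the tail of megalin, had 6553, 7571 and 6515 normalized counts in controls and 6846, 8492 and 5013 in FeD kidneys. The FeD kidneys held both the highest and the lowest value of all 6. The log2 difference was -0.02 (SE 0.17, 95% CI -0.41 to 0.37, edgeR adjusted p = 0.93). That interval ended short of the point estimates for Lrp2 and Cubn. It overlapped their own intervals, -0.66 to -0.30 for Lrp2 and -0.62 to -0.27 for Cubn. The log2 ratio of Lrp2 to Dab2 within a kidney differed by -0.43, and the groups overlapped (two-sided exact permutation test, p = 0.20). Dab2 differed by -0.49 among the kidneys with high Xist and by 0.23 among those with low Xist. Its highest value was in FeD 2, the kidney with the adrenal cortex transcripts, and its lowest in FeD 3, the FeD kidney with high Xist. Without FeD 2 the difference was -0.19, and without FeD 3 it was 0.17, neither past the test. The part of the adrenal transcripts in the Dab2 level was not tested.

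Clcn5, the endosomal exchanger, had 557, 590 and 568 normalized counts in controls and 583, 537 and 607 in FeD kidneys. The groups overlapped throughout. The log2 difference was 0.01 (SE 0.080, 95% CI -0.17 to 0.20, adjusted p = 0.92), so a fall as large as those fitted for Lrp2, Cubn, Amn or Folr1 lay outside the interval.

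Ocrl, the phosphoinositide phosphatase, had 795, 806 and 761 normalized counts in controls and 1221, 1387 and 1156 in FeD kidneys. No FeD kidney was near the control range. The mean went from 787 ± 23.3 to 1255 ± 119 (SD, n = 3 each), and Ocrl rose by 0.67 on the log2 scale (SE 0.084, edgeR adjusted p = 0.00050), a level 59.2% higher. Ocrl is X-linked; it was higher in FeD kidneys within both Xist classes, by 0.53 among kidneys with high Xist and 0.77 among those with low Xist.

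Ctns, the lysosomal cystine exporter, had 600, 602 and 614 normalized counts in controls and 776, 809 and 687 in FeD kidneys. Controls were within a few percent of each other, and every FeD kidney was above them. The mean went from 606 ± 7.52 to 757 ± 63.5 (SD, n = 3 each), and Ctns rose by 0.32 on the log2 scale (SE 0.086, edgeR adjusted p = 0.016). The call was lost without any 1 of the control kidneys, at adjusted p = 0.058, 0.060 and 0.0501 without control 1, 2 and 3.

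**Figure D2:**
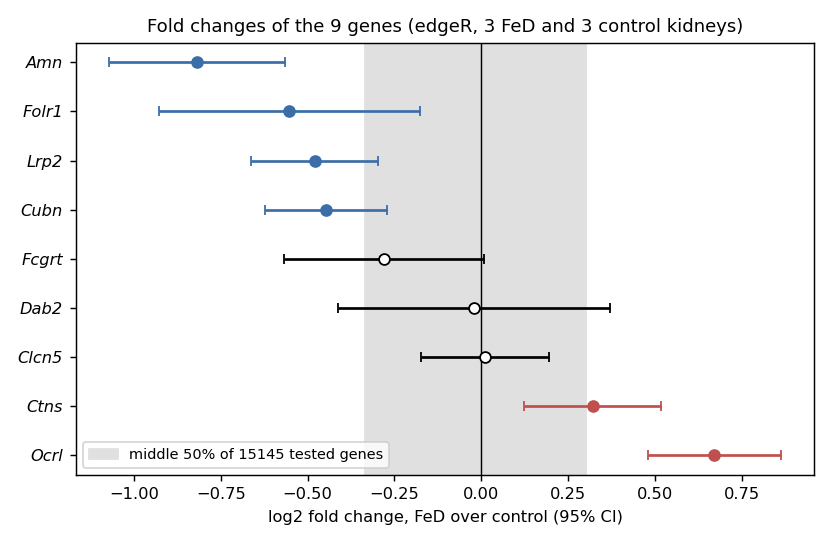
Log2 fold change of FeD over control for each gene, with 95% confidence intervals from edgeR (3 kidneys per group). Filled blue and red points passed an adjusted p under 0.05, open points did not, and the grey band is the middle 50% of all tested genes. The points of Amn, Folr1, Lrp2 and Cubn lie to the left of the band, and those of Ocrl and Ctns to its right.

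Levels were compared between genes as RPKM, the count per kilobase of exon scaled to library depth, and the 9 genes covered a wide range. In controls the order by mean RPKM was Folr1 at 141, Fcgrt at 109, Amn at 93.3, Lrp2 at 77.3, Dab2 at 52.4, Cubn at 29.1, Ctns at 9.995, Ocrl at 4.65 and Clcn5 at 2.79. Neighbours in this order did not overlap over the 3 control kidneys, although Fcgrt and Amn nearly met, at 104.3 and 103.7. In FeD kidneys the order was Folr1 at 96.0, Fcgrt at 90.1, Lrp2 at 55.4, Amn at 52.9, Dab2 at 51.7, Cubn at 21.3, Ctns at 12.5, Ocrl at 7.40 and Clcn5 at 2.81. There Folr1 (69.7 to 116) and Fcgrt (71.5 to 104) overlapped, and so did Lrp2 (54.0 to 57.3), Amn (46.6 to 61.2) and Dab2 (38.2 to 64.7). The lengths were those of all annotated exons merged, so an error in a length shifts a gene alike in all kidneys.

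**Figure D3:**
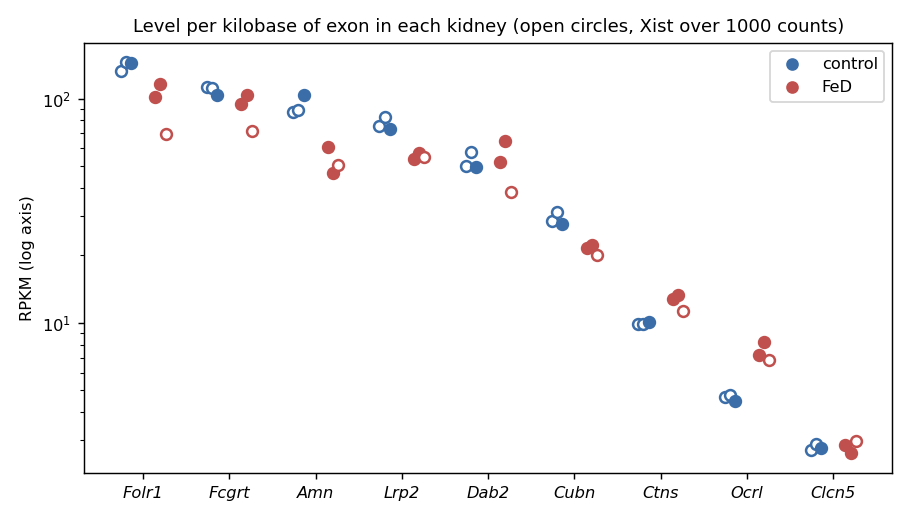
RPKM of each gene in each kidney on a log axis, ordered by the control mean, with controls in blue and FeD kidneys in red. Open circles are kidneys with over 1000 Xist counts. Folr1 is the highest, at 133 to 145 RPKM in controls, and Clcn5 the lowest, at 2.72 to 2.88.

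The 9 genes were then set beside other genes of the proximal tubule. Of the 16 S1 and S2 markers, which mark its convoluted part, 10 fell and 3 rose, with a median log2 difference of -0.85. The sodium-phosphate cotransporter Slc34a1 went from 71858 to 15391 normalized counts and the creatine synthesis enzyme Gatm from 17981 to 7218. Of the 14 S3 markers, which mark the straight part, 7 fell and 1 rose, with a median of -0.46. The protease Napsa and the fatty acid transporter Slc27a2, the S3 markers with the most counts, were at -0.12 and 0.01 and did not pass the test. The mean log2 level of the 30 markers together was 11.59 to 11.68 in controls and 10.56 to 10.61 in FeD kidneys.

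Divided by this mean within each kidney, 8 of the 9 genes were higher in every FeD kidney than in every control. The log2 difference was 0.57 for Lrp2, 0.60 for Cubn, 0.47 for Folr1, 0.75 for Fcgrt, 0.999 for Dab2, 1.06 for Clcn5, 1.37 for Ctns and 1.72 for Ocrl. Each of these had an exact permutation p of 0.10, the smallest possible, and 0.13 after adjustment over 12 ratios. The divisor itself was lower in FeD kidneys, as given above, and so were its S1 and S2 part and its S3 part. A gene with an unchanged level would therefore be higher by this ratio. Over all tested genes, the undivided log2 difference had a median of -0.0018 and quartiles of -0.34 and 0.30. The share of all genes higher by the ratio was not computed. For Amn the groups overlapped, with a difference of 0.22 (exact permutation p = 0.20), and with the S3 markers alone as the divisor it was -0.019. With that divisor the groups overlapped for Folr1 and Fcgrt as well, at differences of 0.22 (exact permutation p = 0.40) and 0.51 (exact permutation p = 0.20), so 6 of the 9 genes were higher in every FeD kidney. Lrp2 and Cubn were among these, at 0.33 and 0.36, and with the S1 and S2 markers alone they were at 0.78 and 0.82.

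**Figure D4:**
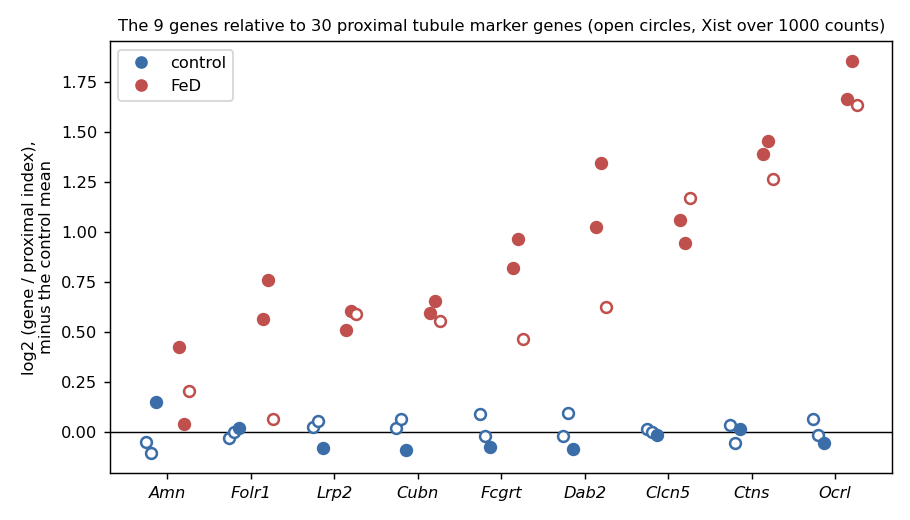
Log2 ratio of each gene to the mean of 30 proximal tubule markers, minus the control mean, in each of the 6 kidneys. Controls (blue) lie around 0, and the FeD kidneys (red) lie above the controls for every gene except Amn, where the groups overlap. The marker mean itself was lower in FeD kidneys. Open circles are kidneys with over 1000 Xist counts.

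By the distance between log2 profiles over the 6 kidneys, each centred on its control mean, Cubn was 0.106 from Lrp2, while Amn was 0.746 from Lrp2 and Ocrl 1.991. Outside the 9 genes, the profiles nearest to Lrp2 were those of Stat2, Tmem258, Acad8, Arhgef15 and Phkb, at distances of 0.0972 to 0.115. Those nearest to Cubn were Park2, the monocarboxylate transporter Slc16a9, 9130023H24Rik and Copz1, at 0.0782 to 0.107. These genes were picked for their likeness from all tested genes, so their log2 differences, -0.52 to -0.44 for Lrp2 and -0.47 to -0.42 for Cubn, are a description.

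Other genes of the endocytic route went both ways. Over 184 tested genes in 9 lists, with a gene of several lists counted once, 53 fell and 48 rose, which is 28.8% and 26.1%, beside 23.3% and 22.4% of all genes, and their median log2 difference was -0.05. Without control 2 or without control 3 the number that fell was 31, when 17.0% and 17.1% of all genes fell. In each of these fits the number that fell went to 3 for adaptors and the clathrin coat, 4 for sorting and recycling, 5 for vitamin handling, 3 for ligands and 1 for transcription factors.

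Among 30 genes of adaptors, the clathrin coat and fission, 7 fell and 7 rose (median -0.06). Those that fell included the clathrin light chain Cltb (-0.55) and the AP-2 subunits Ap2s1 (-0.37) and Ap2a2 (-0.27). Those that rose included the coat initiator Fcho2 (0.74), the phosphoinositide phosphatase Synj1 (0.52) and Eps15 (0.50). Among 32 genes of endosome sorting and recycling, 9 fell and 12 rose (median 0.05). The recycling gene Ehd1 (-0.67), Rab11fip3 (-0.56) and Rab38 (-0.88) fell, and the early endosome GTPase Rab5a (0.54), Snx5 (0.48) and Vps4b (0.33) rose. Rab38, a small GTPase whose loss in rats impairs tubular protein uptake, went from 216 to 117 normalized counts.

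Endosome acidification held more genes that fell than rose: 10 of 27 fell, 3 rose and the median was -0.13. The list counts proton pump subunits in whole kidney RNA, so pumps of other membranes and cell types are included. Without control 2 the number that fell was 5 and without control 3 it was 4, when 17.0% and 17.1% of all genes fell. The proton pump subunits Atp6v1f (-0.54), Atp6v0b (-0.43) and Atp6v1c1 (-0.34) fell, and Atp6v0d2 (0.57), Atp6ap2 (0.43) and Ostm1 (0.24), a partner of a lysosomal chloride exchanger, rose. Among 18 lysosomal proteases and membrane proteins 4 fell and 7 rose (median -0.03). The sialic acid exporter Slc17a5 (1.35), the amino acid sensor Slc38a9 (0.98) and the lysosomal membrane protein Scarb2 (0.80) rose, and the cathepsins Ctsz (-0.54) and Ctsb (-0.37) and the transcription factor Tfeb (-0.57) fell.

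In the receptor family to which megalin belongs, with its chaperones and related sorting receptors, 6 of 15 genes fell and 4 rose (median 0.01). Lrpap1, the chaperone that keeps megalin free of ligands during its synthesis, fell from 7236 to 4558 normalized counts, by 0.67 on the log2 scale. Lrp3 (-0.61) fell too, and Lrp4 (0.61), Vldlr (0.52) and Lrp6 (0.40) rose. Lrpap1 and Lrp2 thus both fell, while other receptors of the family did not share a direction.

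Among 20 genes that handle folate, cobalamin, retinol and vitamin D, cargo of these receptors, 8 fell and 7 rose (median -0.14). The proton-coupled folate transporter Slc46a1 (-1.04), the cobalamin processing gene Mmachc (-0.69) and the folate-retaining enzyme Fpgs (-0.44) fell. The reduced folate carrier Slc19a1, named after its value was seen, rose from 2602 to 3614 normalized counts (0.47). The vitamin D activating enzyme Cyp27b1 rose from 248 to 3042 normalized counts (3.62), the retinol carrier Rbp4 from 41.0 to 647 (3.96) and the thyroxine carrier Ttr from 797 to 2867 (1.85). Among 25 filtered or local ligands of megalin and cubilin, 5 fell and 6 rose (median 0.07). Besides Rbp4 and Ttr, Lcn2, which encodes the iron carrier lipocalin, rose from 80.0 to 608 normalized counts (2.94). Clu (-0.70), the cobalamin carrier Tcn2 (-0.41) and Apob (-3.55) fell, the last from 46.8 to 4.37 normalized counts. Apob had 1.00, 10.4 and 1.73 normalized counts in FeD 1, FeD 2 and FeD 3. FeD 1 and FeD 3 were thus under the floor of 3 counts, and the size of this fall is uncertain.

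Among 13 other genes linked to renal Fanconi syndrome or related tubular disease, 5 fell and 1 rose (median -0.17). Slc34a1 (-2.22), Gatm (-1.32) and Fah (-0.43) fell and the peroxisomal enzyme Ehhadh (1.53) rose. Among 10 proximal transcription factors 2 fell and 3 rose (median -0.09). Maf (0.82), Ppara (0.52) and Hnf4g (0.86) rose, and Cux1 (-0.43) and the vitamin D receptor Vdr (-0.24) fell. Hnf4a, which had the most counts of this list, was at -0.24 and did not pass the test (adjusted p = 0.19).

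**Figure D5:**
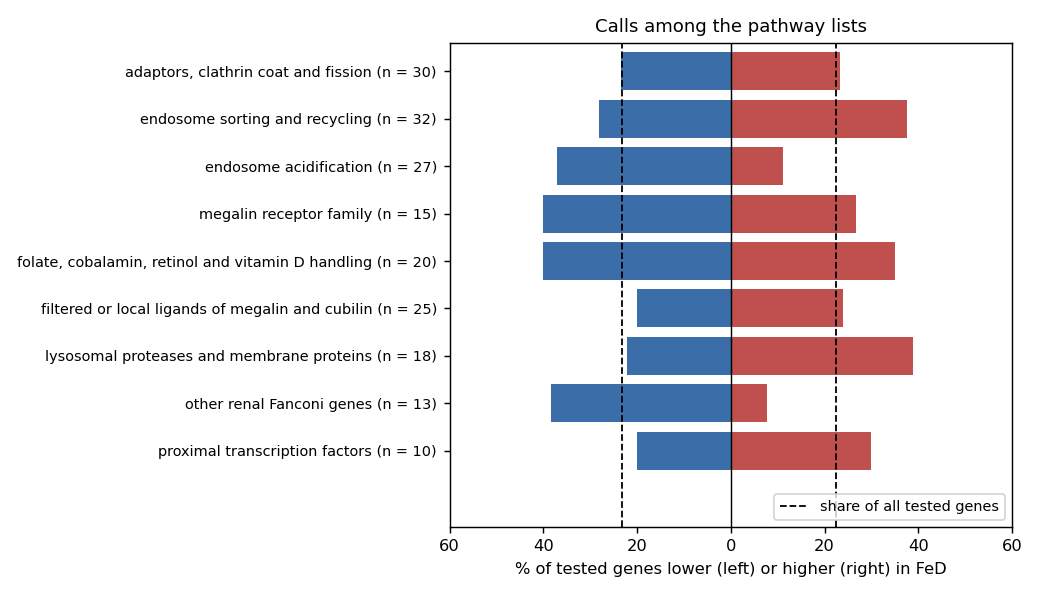
Share of tested genes lower (blue, left) or higher (red, right) in FeD kidneys at an adjusted p under 0.05, for the 9 lists with the number tested beside each name. Dashed lines are the shares of all tested genes, 23.3% lower and 22.4% higher. Acidification, Fanconi, megalin receptor family and vitamin handling genes extend further to the left than to the right. Sorting, lysosomal, ligand and transcription factor genes extend further to the right.

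Markers of other cell types moved as well, and their part in the results above was not tested. Collecting duct markers summed to 23294 to 33095 normalized counts in controls and 33658 to 55016 in FeD kidneys (3 of 8 fell and 5 rose, with Aqp2 and Aqp3 the most abundant). Endothelial markers summed to 26657 to 27124 and 17632 to 23390 (6 of 9 fell and 1 rose; Plvap and Pecam1), and fibroblast markers to 45186 to 47776 and 30277 to 41393 (4 of 8 fell and 3 rose; Col3a1 and Col1a2). Macrophage markers summed to 2910 to 3246 and 3190 to 3884 (1 of 10 fell and 6 rose; Csf1r and Lyz2), and the 4 tested of 8 lymphocyte markers (3 fell; Cd79b and Cd8a) belonged to a list that summed to 164 to 235 and 62.2 to 72.7. Podocyte sums of 16007 to 17599 and 12437 to 17263 (1 of 7 fell and 1 rose; Podxl and Synpo) and thick limb and distal sums of 139784 to 156421 and 97838 to 147633 (4 of 8 fell; Slc12a1 and Umod) overlapped. Of 7 red cell markers 3 were tested and 1 fell (Slc4a1, also a collecting duct gene; Alas2), and 4 globin genes had at most 3 counts in any kidney. Of 7 adrenal markers 3 were tested and 2 rose, with sums of 141 to 1287 and 210 to 13913 (Star and Hsd3b1). The sums of the macrophage and of the adrenal markers also overlapped between the groups. The defining proximal genes Slc34a1 and Lrp2 were abundant in all 6 kidneys.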

How the data were processed

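RNA-seq counts of 6 whole kidneys (3 control, 3 FeD) were examined. The authors enriched poly-A RNA, made TruSeq libraries and, per the labels' processing notes, used CASAVA 1.8.2, Trimmomatic, TopHat2 2.0.11 and HTSeq with the mm9 build; the deposited values are raw counts of reads per gene. The annotation, counting mode and strand setting are not given in the sources used here. Columns were matched to samples by the sample descriptions, and groups were taken from the titles.

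Counts were filtered (filterByExpr), scaled (TMM) and tested with edgeR's quasi-likelihood test (edgeR 4.0.16, R 4.3.3), with Benjamini-Hochberg adjustment over 15145 genes and a threshold of 0.05. The standard error is the absolute log2 fold change divided by the square root of F. Normalized counts are scaled to the mean library size; RPKM divides them by the merged exon length in the GENCODE vM1 annotation of the NCBIM37 (mm9) build. Within-kidney ratios used a prior of 0.5 and two-sided exact permutation tests. Confidence intervals are at 95%. The fit was tested on simulated counts with 200 changed genes. It recovered 63 of them at a true log2 change of 0.5, with 1 false call. At a true log2 change of 1 it recovered 173 of 200, with 14 false calls. Replicates of a group differed by more than sampling noise (chi-square per degree of freedom 3.86 to 32.0). A count of 3 was taken as the floor, which covers counting error only.

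Named were all 9 genes, for each pathway list up to 3 called genes per direction with the smallest adjusted p, for each marker list the 2 genes with the most counts, and the 5 profiles nearest to Lrp2 and to Cubn; some genes that this rule names are not reported here. Gm13270, Slc19a1, the Y-linked genes and Xist lie outside this rule and were chosen after their values were seen, as was naming Hnf4a among the most abundant genes. The set of 9 genes was proposed, and the lists and tests were chosen, with earlier results of these data known. Alternatives were DESeq2 (1.42.0) and its size factors, library size alone, other filters, a replicate block, a test against 1.5-fold and leaving out each kidney. The Xist class covariate, and leaving out red cell and mitochondrial genes, were chosen after seeing the data.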

Additional observations from a re-analysis of the deposited data

How the results depend on the processing

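Over 15 alternatives, Lrp2, Cubn, Amn and Ocrl kept their direction, and their call in all but the test against 1.5-fold. In that test, which asks for more than a difference from 0, the members lower and higher were 0 and 0, the pathway genes lower and higher 5 and 9, and all genes 787 and 591 in place of 3527 and 3397. Leaving out each kidney, the number of members that fell ranged from 3 to 5 and the number that rose from 1 to 2. Folr1 and Ctns lost their calls without any 1 control, and Fcgrt gained one without FeD 2. Pathway genes that fell ranged from 31 to 59 and those that rose from 37 to 53. In these fits 17.0% to 24.8% of all genes fell and 15.6% to 25.6% rose. The log2 difference then ranged from -0.52 to -0.43 for Lrp2, -0.49 to -0.39 for Cubn, -0.92 to -0.72 for Amn, -0.69 to -0.36 for Folr1, -0.38 to -0.13 for Fcgrt, 0.29 to 0.40 for Ctns and 0.61 to 0.74 for Ocrl. It ran from -0.19 to 0.17 for Dab2 and from -0.016 to 0.080 for Clcn5, changing sign in each. The ratio of Amn to the proximal markers was 0.22, and -0.019 with the S3 markers alone, with which 6 in place of 8 of the 9 ratios were higher in every FeD kidney; the cause was not tested. With DESeq2, its size factors, library size alone, either filter, without red cell and mitochondrial genes or with the Xist class as a covariate, 4 members fell and 2 rose, as before; both of the last were chosen after seeing the data. Of 40 counts over the gene lists, 27 moved by over 1.5 times in the test against 1.5-fold, 2 to 11 without 1 kidney and 0 to 2 in the other alternatives.

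The replicate numbers are shared between groups, but same-numbered kidneys did not deviate together (correlations -0.16, 9.6e-05 and -0.035), and not every kidney correlated best with its own number. With the replicate block 5 members fell, Fcgrt being added (-0.30, adjusted p = 0.042), and 2 rose; pathway genes were 48 and 44, and all genes 3344 and 3100. It changed no other call among the members.

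Depth was 413 or more counts per kidney for each of the 9 genes. The number of kidneys limits the precision, and exact permutation tests of 3 against 3 cannot go below 0.10.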
